A study of Rattus norvegicus with 4 samples.

Results

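SNARE proteins are the engines of membrane fusion inside cells, and their transcripts are described here in NR8383 cells, a macrophage line established from rat lung washings. The genes were chosen by name: the numbered syntaxins (Stx) and vesicle-associated membrane proteins (Vamp), the SNAP25 family (Snap23, Snap25, Snap29, Snap47) and the smaller SNAREs Ykt6, Sec22b, Bet1, Bet1l, Gosr1, Gosr2, Vti1a and Vti1b. Of 16579 genes that the arrays could name, 32 were such SNAREs, read by 47 of 45598 probes. Stx16, Vti1b and Vamp9 are symbols of the same kind in the gene table, but no probe carried their names. The rule itself used no measured value.

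All 4 cultures had received the same treatment, the titanium dioxide material NRCWE001 at 3 cm2/cm2 for 4 h, and were at passage 20. The series describes them as biological replicates, and each was measured on its own one-colour array. NR8383 is a single line, so p-values concern only cultures of it. They rest on the spread between arrays, in which culture, labelling and array cannot be told apart. Unexposed cells were not analysed here, and the values cannot say whether the particles raised or lowered any transcript. The values answer which SNARE transcripts were above an array's background in exposed macrophages, and how far the arrays of the 4 cultures differed.

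SNAREs on a vesicle and on its target membrane zip into a bundle of helices that pulls the membranes together. Syntaxins usually supply the Qa helix, SNAP25 family members supply Qb and Qc helices in 1 protein, and VAMPs, Ykt6 and Sec22b supply the R helix. In macrophages, surface SNAREs serve cytokine secretion and the delivery of membrane to the phagocytic cup, and endosomal ones serve the fusion of phagosomes with lysosomes.

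Promoter sequences were taken from RefSeq (assembly GRCr8) for the 28 members that its promoter table held, as the 250 bases before the annotated start. The promoters of Vamp8 and Vamp5 are printed because these genes are direct neighbours on chromosome 4 and differed in detection. That of Snap29 is printed because it held the only CLEAR element (a motif known from lysosomal gene promoters) among the members. That of Stx19 is printed because it held no CpG and the only match among them to the TATA box letters (TATAAA). Capitals mark a GC box (GGGCGG) 47 bases before the start in Vamp8 and the CLEAR element 152 bases before it in Snap29. In Stx19 they mark the TATA box letters on the opposite strand, which read TTTATA, 151 bases before the start. Whether these letters act as a TATA box was not tested.
Vamp8 (chr4:106005643-106005892, minus strand): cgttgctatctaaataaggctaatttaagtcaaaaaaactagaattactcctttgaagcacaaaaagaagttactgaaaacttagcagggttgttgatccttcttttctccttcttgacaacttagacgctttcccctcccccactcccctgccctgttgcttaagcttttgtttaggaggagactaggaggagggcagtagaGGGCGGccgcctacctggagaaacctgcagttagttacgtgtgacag
Vamp5 (chr4:105993248-105993497, minus strand): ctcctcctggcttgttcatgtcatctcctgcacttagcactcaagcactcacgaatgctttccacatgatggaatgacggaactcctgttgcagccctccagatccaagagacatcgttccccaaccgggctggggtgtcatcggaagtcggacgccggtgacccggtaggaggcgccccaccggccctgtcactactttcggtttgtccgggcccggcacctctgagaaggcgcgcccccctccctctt
Snap29 (chr11:97113196-97113445, minus strand): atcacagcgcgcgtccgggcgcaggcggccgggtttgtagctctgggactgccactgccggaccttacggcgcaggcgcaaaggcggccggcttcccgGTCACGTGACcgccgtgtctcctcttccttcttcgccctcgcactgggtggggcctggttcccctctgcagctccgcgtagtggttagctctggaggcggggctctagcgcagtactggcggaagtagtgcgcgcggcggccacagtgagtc
Stx19 (chr11:13619186-13619435, plus strand): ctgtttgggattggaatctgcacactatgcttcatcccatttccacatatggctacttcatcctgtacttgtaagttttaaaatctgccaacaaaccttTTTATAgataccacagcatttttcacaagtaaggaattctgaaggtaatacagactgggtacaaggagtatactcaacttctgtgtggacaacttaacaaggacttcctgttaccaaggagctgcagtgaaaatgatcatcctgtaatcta

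Each motif was searched on both strands, and the E-box (CACGTG) lies inside the CLEAR element. The CLEAR element occurred in 0.24% of all 27457 promoters of the table and in 0.549% of those of genes detected on all 4 arrays. A GC box occurred in 18 of 28 member promoters, against 32.4% of all promoters and 59.5% of those of genes detected on all arrays. A CCAAT box (CCAAT) occurred in 9 of 28, against 34.3% of all promoters, and an E-box in the 2 promoters of Snap29 and Stx6, against 5.79%. TATAAA stood in 13.1% of all promoters. Member promoters held a median of 17 CpG, the same as the promoters of genes detected on all arrays (17) and above the 5 of genes detected on none. Within the members the median was 13.5 CpG in the 22 promoters of members detected on all arrays and 22.5 in the 6 of members detected on fewer. Of those 6, only that of Stx11 belongs to a gene detected on none, so this split differs from the one of all genes.

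Transcripts of most SNAREs were measurable in the exposed cells. A gene counted as detected on an array where the scanner software had flagged any of its probes as well above background, on over 0.5 of the probe's spots. By that rule 24 of 32 members were detected on all 4 arrays, where 45.7% of all genes were. A further 5 (Stx2, Stx3, Snap23, Vamp4 and Vamp5) were detected on 1 to 3 arrays, against 6.06% of all genes, and 3, among them Stx11 and Snap25, on none, against 48.2%. Members were grouped by site of action, except that VAMPs and the SNAP25 family, endosomal ones included, form groups of their own. All 8 ER and Golgi members and all 6 other members of endosomes, lysosomes and autophagosomes were detected throughout. The same held for 5 of 7 VAMPs, 3 of 7 syntaxins of the plasma membrane and 2 of 4 SNAP25 family members. Single arrays detected 26 to 28 members, against 47.4 to 50.3% of all genes. No spot on any array was saturated. With a more lenient flag, signal positive and significant against background, the 5 genes of the middle group joined the 24 and the other 3 did not. Over all 16579 genes, that flag raised the count detected on all 4 arrays from 7579 to 9160. In a cell population, fewer cells with a transcript and less of it per cell cannot be told apart.

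**Figure D1:**
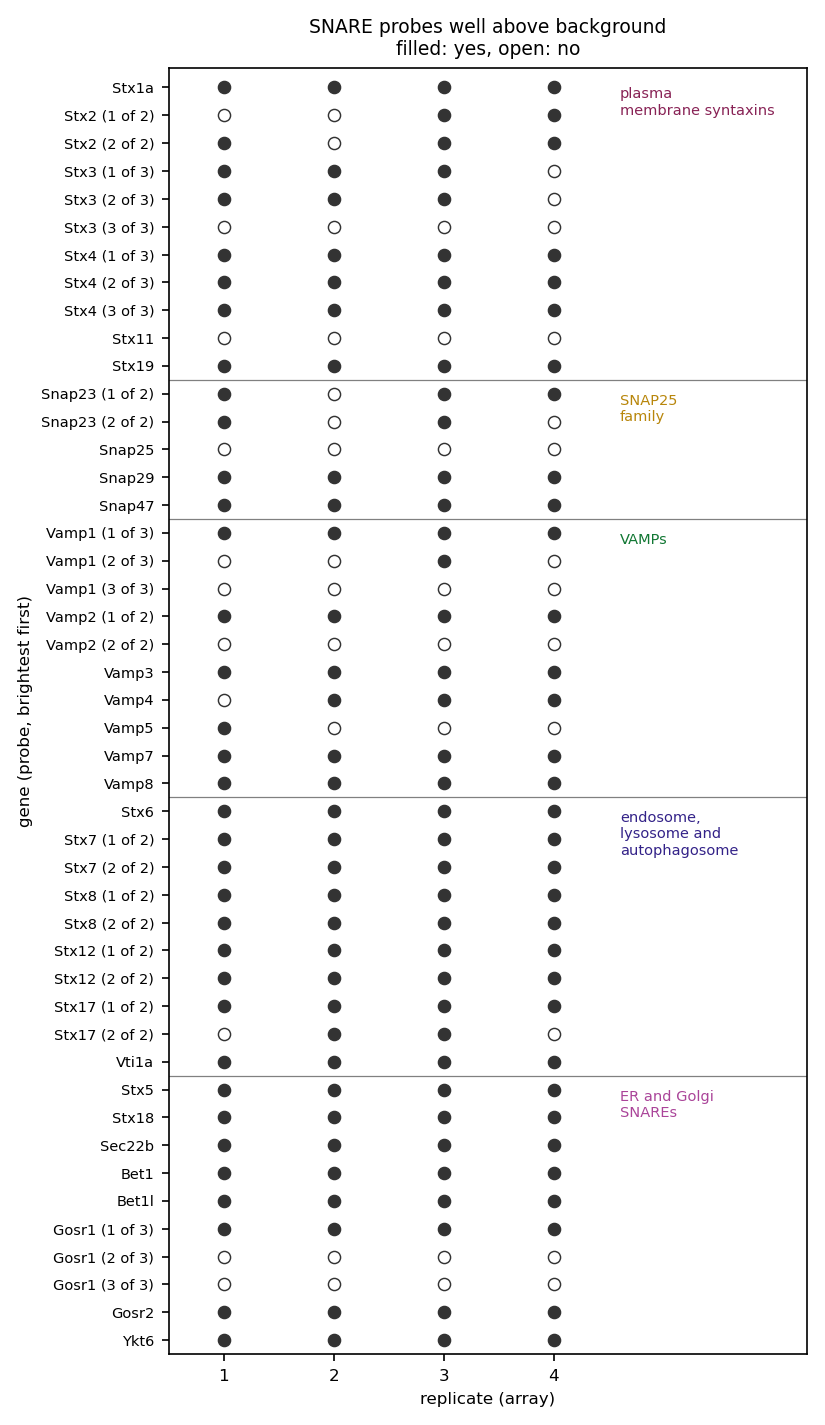
Detection of 46 SNARE probes on the 4 arrays, replicates 1 to 4 on the horizontal axis. A filled circle is a probe well above background and an open one a probe that was not, and the probes of a gene stand in rows of their own. Rows of the ER and Golgi group are filled throughout except for 2 of the 3 probes of Gosr1. The other open circles stand among plasma membrane syntaxins, the SNAP25 family, the VAMPs and the second probe of Stx17.

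Levels are on a log2 scale, relative to the 75th percentile of an array's processed signals, which lay at 433, 347, 554 and 414 intensity units on replicates 1 to 4. A level belongs to the brightest probe of its gene. Probes differ in how brightly they report a transcript, so a level is compared here between arrays and never between genes.

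Among syntaxins of the plasma membrane, Stx4, Stx1a and Stx19 were detected on every array. Stx4, the target-membrane syntaxin of regulated secretion in many cells outside the nervous system, lay at 0.59, 0.69, 0.23 and 0.52 on replicates 1 to 4 (0.51 ± 0.20, SD, n = 4). It was lowest on replicate 3. Stx1a, best known from neurotransmitter release, lay at -1.53, -1.69, -1.83 and -1.85 on replicates 1 to 4 (-1.73 ± 0.15), with all of its 39 usable spots well above background. Its highest value was on replicate 1. Stx19, a syntaxin without a transmembrane segment, was dim, with levels of -3.44, -3.22, -4.23 and -3.74. Its processed signals were 39.9, 37.3, 29.5 and 31 units, against 13.5 to 16.6 units for the dimmest detected probe of each array. Its spread (-3.66 ± 0.44) covered a 2.02-fold range, with replicate 3 lowest.

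Stx3 and Stx2 were measured at the edge of detection. Stx3, a syntaxin of apical membranes and granule release, lay at -3.46, -3.13, -3.42 and -4.22 (-3.56 ± 0.47) and missed detection on replicate 4, its lowest array. Stx2, also called epimorphin, lay at -4.20, -4.36, -4.69 and -4.09 (-4.34 ± 0.26) and was detected on replicates 1, 3 and 4, on replicate 1 by its other probe alone. Stx11, whose loss in humans causes an inherited failure of lymphocyte killing, gave signals of 3.86, 3.59, 3.86 and 3.67 units on replicates 1 to 4, below the dimmest detected probe of each array.

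In the SNAP25 family, Snap29 and Snap47 were detected throughout. Snap29, a partner of Stx17 in the fusion of autophagosomes with lysosomes, lay at 1.70, 1.49, 1.55 and 1.47 on replicates 1 to 4 (1.55 ± 0.10). Snap47 lay at -0.44, -0.45, -0.60 and -0.14 (-0.41 ± 0.19) and was highest on replicate 4. Snap23, the ubiquitous relative of Snap25 at the cell surface, was dim on both of its probes. Its brighter probe gave 42.5, 13.8, 74.6 and 24 units, which as levels were -3.35, -4.65, -2.89 and -4.11 (-3.75 ± 0.78), a 3.37-fold range, and it was not well above background on replicate 2. The other probe gave 25, 9.97, 25.9 and 17.1 units and missed detection on replicates 2 and 4. RefSeq lists a pseudogene of Snap23, so its probes are uncertain. Snap25, the neuronal member, was printed on 10 spots per array, and 0 of its 37 usable spots were well above background, at 2.74 to 9.30 units.

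The VAMPs, R-SNAREs that mostly ride on vesicles, included some of the steadiest and some of the least certain values. Vamp8, which serves late endosomes and granule release, gave processed signals of 16383, 12786, 18652 and 17892 units and levels of 5.24, 5.20, 5.07 and 5.43 (5.24 ± 0.15). Vamp5, the gene beside it on chromosome 4, gave 16.9, 8.27, 12.4 and 10.7 units and was well above background on replicate 1 alone. The contrast between these neighbours is one of detection, as the brightness of separate probes is not comparable.

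Vamp3, also called cellubrevin, is the R-SNARE of recycling endosomes that feeds membrane to phagocytic cups. It lay at 1.76, 1.73, 1.70 and 1.76 on replicates 1 to 4 (1.74 ± 0.03), a range of 1.05-fold. Vamp2, best known from synaptic vesicles, lay at 2.56, 2.63, 2.45 and 2.73 (2.59 ± 0.11), with replicate 3 lowest and replicate 4 highest. Vamp7, which takes part in lysosome exocytosis, lay at 0.88, 0.74, 0.85 and 0.64 (0.78 ± 0.11). Vamp1, another synaptic vesicle member, lay at -1.84, -2.14, -1.99 and -2.04 (-2.00 ± 0.12) on its brightest probe, with all 38 usable spots well above background. Vamp4, which acts between endosomes and the trans-Golgi network, lay at -4.51, -3.38, -3.02 and -3.10 (-3.50 ± 0.69). It was not detected on replicate 1, where its difference from the mean of the other arrays was -1.35.

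**Figure D2:**
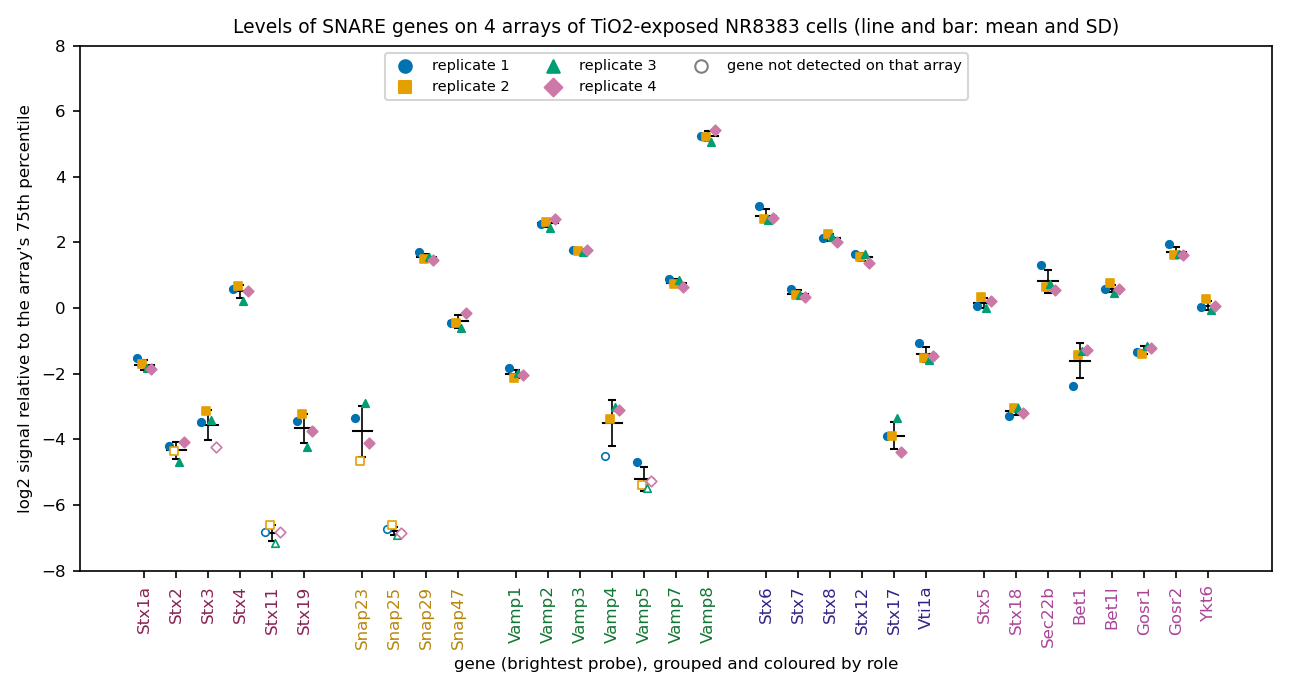
Levels of 31 SNARE genes on 4 arrays, as log2 signal relative to the array's 75th percentile, grouped by site of action or protein family. Points are arrays (open where the gene was not detected), lines and bars are mean and SD of the 4 arrays. The 4 points of Vamp3 lie within 0.07 of each other, those of Snap23 spread over 1.75, and heights of different genes reflect their probes as well as their transcripts.

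Apart from the VAMPs, the SNAREs grouped under endosome, lysosome and autophagosome were all detected on every array. Stx7, the late endosomal Qa-SNARE that acts with Stx8, Vti1b and Vamp8 or Vamp7, lay at 0.60, 0.41, 0.40 and 0.35 (0.44 ± 0.11), and Stx8 at 2.13, 2.27, 2.18 and 2.03 (2.15 ± 0.10). Both stayed within a 1.19-fold range. RefSeq lists pseudogenes of Stx8, so its probes are uncertain. Stx12, also known as syntaxin 13 and a Qa-SNARE of recycling endosomes, lay at 1.65, 1.54, 1.65 and 1.38 (1.56 ± 0.13), with replicate 4 lowest. Stx6, a Qc-SNARE of the trans-Golgi network and endosomes, lay at 3.11, 2.73, 2.67 and 2.76 (2.82 ± 0.20), and Vti1a, its Qb partner, at -1.07, -1.52, -1.59 and -1.46 (-1.41 ± 0.23). On replicate 1 Stx6 was 0.39 and Vti1a 0.45 above the mean of the other arrays. Stx17, the syntaxin of autophagosomes, was dim, at -3.90, -3.91, -3.35 and -4.38 (-3.88 ± 0.42), highest on replicate 3 and lowest on replicate 4. Its SD was 0.11 with normexp correction of the median spot signals. That setting adds an offset of 50 units, and an added offset compresses the log2 differences of a dim probe. It also changed the input signal and the background correction, and their separate parts in this SD were not tested.

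Those of the early secretory pathway were likewise detected on every array. Stx5, the Qa-SNARE of the Golgi, lay at 0.05, 0.34, 0.00 and 0.21 (0.15 ± 0.15), and Ykt6, an R-SNARE held on membranes by lipids, at 0.03, 0.28, -0.05 and 0.06 (0.08 ± 0.14). Both were highest on replicate 2. Gosr2, the Qb-SNARE also called membrin, lay at 1.94, 1.62, 1.66 and 1.63 (1.71 ± 0.15), where replicate 1 stood above the rest. Gosr1, another Qb-SNARE of the Golgi, lay at -1.33, -1.41, -1.16 and -1.20 (-1.28 ± 0.11). Bet1l, a Qc-SNARE of retrograde Golgi traffic, lay at 0.58, 0.75, 0.46 and 0.59 (0.60 ± 0.12), and Stx18, a Qa-SNARE of the ER, at -3.29, -3.05, -3.05 and -3.20 (-3.15 ± 0.12).

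The members that differed most between arrays, beside genes of like level, came from this group too. Sec22b is an R-SNARE between ER and Golgi that also brings ER proteins to phagosomes. It gave 1079, 543, 915 and 609 units, or levels of 1.32, 0.65, 0.72 and 0.56 (0.81 ± 0.34), and replicate 1 was 0.68 above the mean of the others. Bet1, a Qc-SNARE of ER to Golgi traffic, gave 83.6, 129.7, 222 and 171 units, or levels of -2.37, -1.42, -1.32 and -1.27 (-1.60 ± 0.52), and replicate 1 differed from the mean of the others by -1.03. Without replicate 1 the SD was 0.08 for Sec22b and 0.07 for Bet1. By Dixon's ratio, which sets the gap of an extreme array against the whole range, replicate 1 stood apart in 2 of 24 members tested, Bet1 and Gosr2, where 5.46% of all genes had such an array.

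Several members were read by more than 1 probe (11 of 32), and the probes did not always give the same answer. For Gosr1, the probe with the accession XM_006246914 was detected on all arrays and both probes with NM_053584 on none. For Vamp2, the NM_012663 probe was detected on every spot, and a probe with XM_006246593 gave 3.89, 3.62, 3.96 and 3.76 units and was never detected. For Vamp1, which has 3 probes of the same accession, the 10-spot probe was detected throughout, another on replicate 3 alone and the third on none. Stx3 had 2 probes that missed detection on replicate 4 alone and another that missed it on all. The second probe of Stx17 lay at -6.39, -4.00, -4.77 and -5.25 and was detected on replicates 2 and 3 only. The accession names the transcript a probe was designed on, and whether these differences follow transcript forms was not tested.

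Other probe pairs moved together or apart between arrays. Both Stx12 probes were lowest on replicate 4, at -0.18 and -0.29 from their own means, and both Stx8 probes stayed within 0.13 of theirs. The Stx7 probes differed on replicate 3, where the brighter lay at -0.04 from its mean and the other at 0.30. For Stx4 the brightest probe lay at 0.08 from its mean on replicate 1, and the NM_031125 probe at -0.51 from its own. The rise or fall of a single probe on 1 array was thus not always shared by another probe of the gene.

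No member was called more variable than genes of like level. The test divides a gene's variance over the 4 arrays by limma's prior variance at its level, with prior degrees of freedom common to all genes. Benjamini-Hochberg adjustment ran over all 7570 genes detected by their brightest probe on all arrays, and an adjusted p under 0.05 was called. A p-value given as by limma comes from this F test on limma's prior variance. It called 0 of 24 members, where 0.515% of all genes were called, and 2 members, Bet1 and Sec22b, had an unadjusted p under 0.05, where 6.67% of all genes had. Bet1 had the largest SD of the 24 (0.52 against a prior of 0.20, adjusted p = 0.148 by limma's prior variance). Sec22b followed in p (0.34 against 0.16, adjusted p = 0.341). The dim genes Stx19 and Stx17 had SDs of 0.44 and 0.42 against priors of 0.29 and 0.30 (adjusted p = 0.912 and 0.970 by limma), and Vti1a one of 0.23 against 0.20 (adjusted p = 0.991 by limma). At the other end stood Vamp3, whose SD of 0.03 compares with a prior of 0.15 (adjusted p = 1 by limma), Snap29 (0.10 against 0.15) and Stx8 (0.10 against 0.16), both with an adjusted p of 0.991 by limma. The level of Vamp3 is a mean of 10 spots per array, and all but 5 members rest on a single spot. The prior takes no account of the number of spots. The test cannot show that the other members were stable. The number of calls over all genes rested on how the prior was set. With its degrees of freedom lowered for single outlying genes, as limma's robust fit sets them, the test called 0 of 7570 genes (358 at an unadjusted p under 0.05). Bet1 then had an adjusted p of 0.976 by the same F test. Under other settings Bet1 was called. It passed with normexp correction of the median spot signals in place of the processed signal (adjusted p = 0.00112 by limma), which adds an offset of 50 units. It also passed without replicate 2 (adjusted p = 0.038 by limma). With the same normexp setting the SD of Sec22b was 0.14 in place of 0.34 (adjusted p = 0.981 by limma), and its unadjusted p was no longer under 0.05. The median SD of the members was 0.143, and that of all genes tested 0.163. For 16 of 24 members the SD was under the prior, as it was for 60.5% of all genes.

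**Figure D3:**
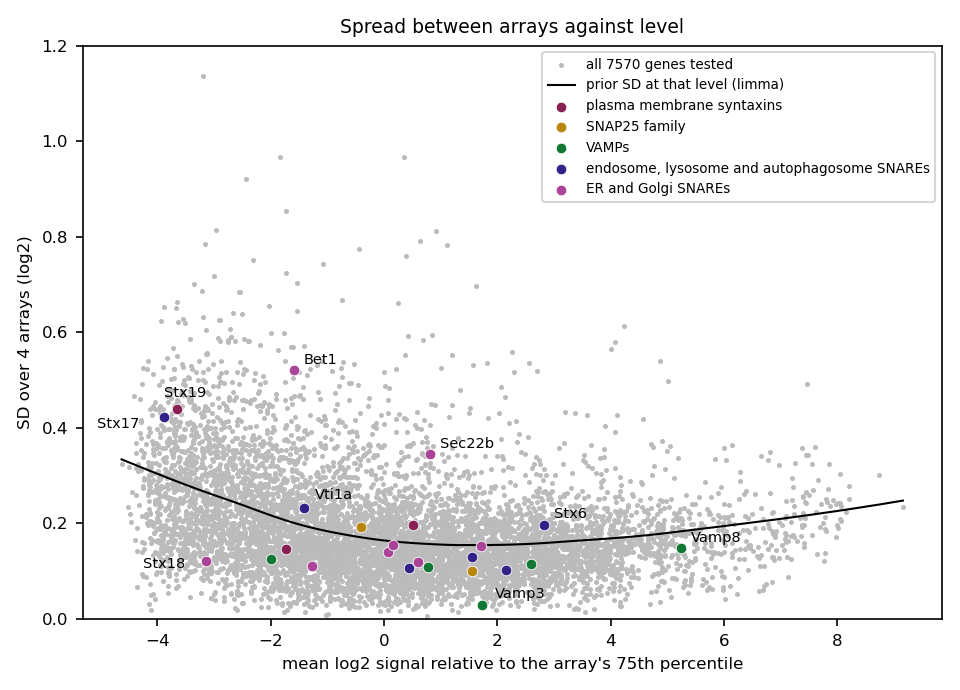
SD over 4 arrays (log2) against mean level (log2 relative to the 75th percentile) for 7570 genes in grey and 24 SNARE genes in colour. The black line is limma's prior SD at each level. Bet1 (0.52) and Sec22b (0.34) stand above the line, and Vamp3 (0.03) far below it.

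Replicate 1 was the highest array for 10 of 24 members, against 25.7% of all genes, and replicate 3 the lowest for 11 of 24, against 45.3%. The median deviation of the members from their own means was 0.06, -0.02, -0.07 and -0.05 on replicates 1 to 4, and that of all genes 0.0049, 0.02, -0.08 and 0.05. An earlier look at these data had found columns 1 to 72 of the replicate 1 array uneven. Of the 12 tested members with at least 1 spot there, 8 were highest on replicate 1, against 34.8% of all genes with such a spot. Of the 12 printed only beyond it 2 were, against 17.4%. The 8 include Vamp1 and Vamp3, which each have 6 of 10 spots beyond column 72. The part of array position in these counts was not tested. Sec22b, Vti1a, Stx6 and Gosr2 have their single spot in those columns and were high on replicate 1. Bet1, Vamp4 and the NM_031125 probe of Stx4 also have theirs there. They were low on replicate 1, at -0.78, -1.01 and -0.51 from their own means. Bet1l, Snap47 and Vamp7, with a single spot there too, lay at -0.02, -0.04 and 0.10 from theirs. Array position and culture cannot be told apart for a probe with 1 spot.

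**Figure D4:**
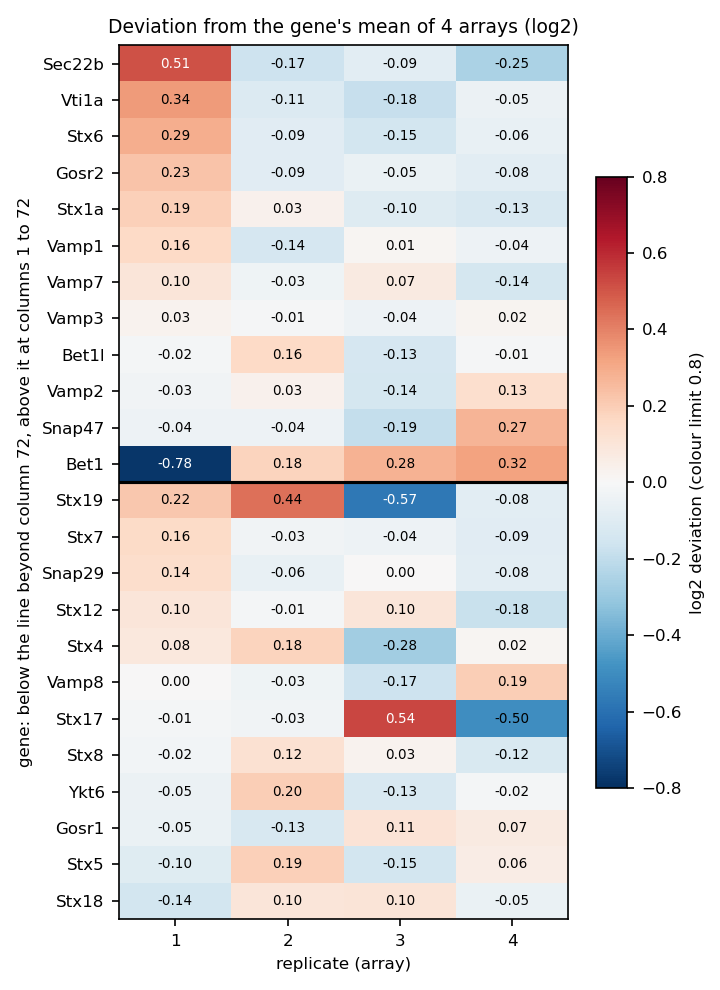
Deviation of each of 24 SNARE genes from its own mean of 4 arrays, in log2 units, with genes that have a spot at columns 1 to 72 above the black line. The largest deviation is -0.78 for Bet1 on replicate 1, and others past 0.5 in size are Sec22b on replicate 1 (0.51) and, below the line, Stx17 (0.54) and Stx19 (-0.57) on replicate 3.

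For 4 members printed 10 times per array, spots inside and outside those columns could be set side by side. On replicate 1 the 4 Vamp3 spots at columns 1 to 72 averaged 1.88 and the 6 beyond 1.69, a difference of 0.20, while on replicates 2 to 4 the difference was 0.06, -0.01 and -0.09. On replicate 1 the 8 Stx1a spots at those columns lay 0.12 above the 2 beyond, and on replicates 2 to 4 the difference was 0.02, -0.05 and -0.05. For Vamp2 the difference was 0.07 on replicate 1 and -0.02 to 0.03 elsewhere. For Vamp1 it was -0.09 on replicate 1, where the 3 usable spots at those columns had an SD of 0.37, and -0.03 to -0.01 elsewhere. Over spots beyond column 72 alone, the SD of Stx1a over arrays was 0.08 in place of 0.15, that of Vamp3 0.05 in place of 0.03, that of Vamp1 0.14 in place of 0.12 and that of Vamp2 0.11 in both cases. Over its spots at columns 1 to 72 alone, Vamp3 had an SD of 0.09. The spots of Vamp2 within an array had an SD of 0.05 to 0.08, and its SD between arrays was 0.11.

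**Figure D5:**
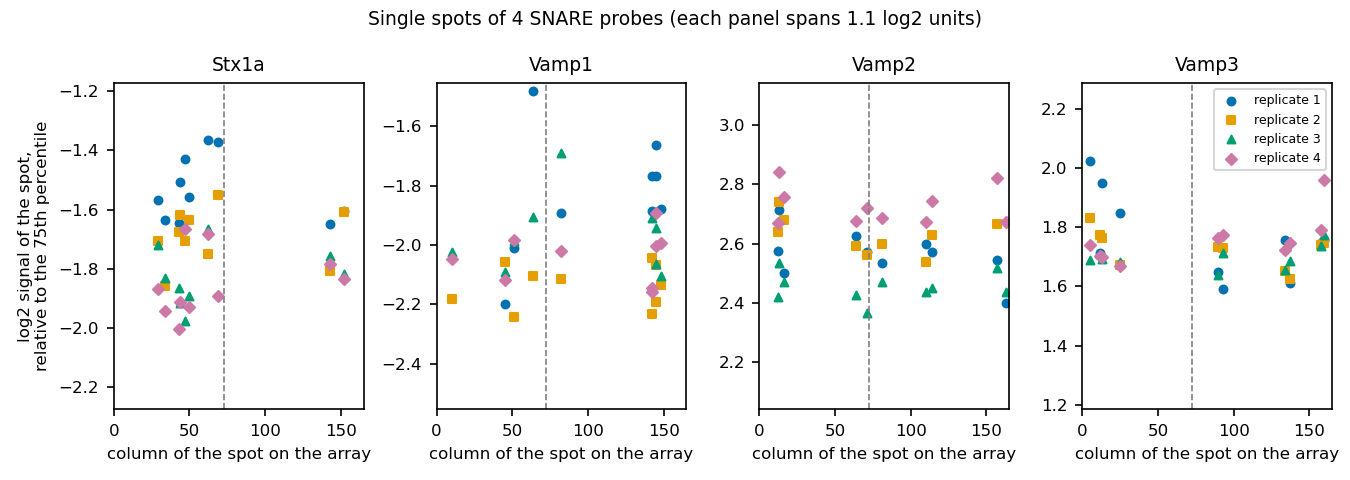
Single spots of the 4 detected SNARE probes printed 10 times per array, by column on the array (horizontal) and log2 signal relative to the array's 75th percentile (vertical). The dashed line marks column 72. On replicate 1 (blue circles) Vamp3 spots left of the line averaged 1.88 and those right of it 1.69, and for Stx1a -1.51 and -1.63.

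The partners of SNAREs were detected in 34 of 65 measured cases, against 45.7% of all genes, with shares that differed between roles. All 8 Sec1/Munc18 proteins, the clasps that guide SNARE assembly, were detected on all arrays, among them Stxbp2 (1.56 ± 0.17). Of the disassembly machinery, the ATPase gene Nsf (-0.34 ± 0.18) and its adaptor gene Napa (1.17 ± 0.13) were detected on all arrays, Napg on 2 and Napb on none. All 5 measured HOPS and CORVET genes, which tether endosomes and lysosomes, were detected, with Vps11 at 0.66 ± 0.15 and Vps16 at -2.45 ± 0.07. The 3 measured genes of the GARP tether were detected too, with Vps52 at -0.63 ± 0.18, and so were 7 of 9 exocyst genes, with Exoc1 at -3.09 ± 0.18 and Exoc2 at -0.51 ± 0.14. SNAREs outside the naming rule were detected in 3 of 3 cases, with Use1 at 2.43 ± 0.18 and Bnip1 at -0.90 ± 0.10.

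Synaptotagmins and the priming and clamping genes were mostly not detected. Of 20 synaptotagmins and genes listed with them, 3 were detected on all arrays and 15 on none, the latter with Syt1 and Syt2. Over all genes, 45.7% were detected on all and 48.2% on none. The list took these 20 as calcium sensors by name, and whether each binds calcium was not checked. Of 13 priming and clamping genes, 3 were detected on all arrays and 9 on none, the latter with Unc13a and Unc13b. The 3 detected on all arrays among those 20 were Syt5 (-2.24 ± 0.19), Syt8 (-1.06 ± 0.26) and Otof (1.83 ± 0.25). The 3 priming and clamping genes were Unc13d (-0.88 ± 0.36), Stxbp5 (-3.74 ± 0.37) and Snapin (1.97 ± 0.05). All 6 were named after their values were seen. Unc13d and Stxbp2 act in cytotoxic granule release together with Stx11, which was not well above background. None of the 34 partner genes tested was called more variable by limma's prior variance, where 0.515% of all genes were. An unadjusted p under 0.05 was found for 2 of them, Scfd1 (adjusted p = 0.55 by limma) and Unc13d (adjusted p = 0.49), where 6.67% of all genes had one.

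The label of the cells was checked on markers. All 10 macrophage markers, such as Cd68 (4.62 ± 0.14) and Csf1r (-0.53 ± 0.09), were detected on all arrays. Of 6 lung epithelial markers 5 were detected on none, with Krt18 on 1 array. Of 10 markers of neurons and neuroendocrine cells, 9 were not detected on any array, among them Syn1, Syp and Rbfox3. Chgb, a granule protein of neuroendocrine cells, was detected on all (0.13 ± 0.11). Stx1a, Vamp1 and Vamp2, SNAREs best known from neurons, were thus measured beside neuronal markers that were mostly not above background. The arrays had 15314 to 16708 probes well above background, and 0 of 58717 spots had identical processed signals on any pair of arrays.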

How the data were processed

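Total RNA of 4 cultures was labelled with Cy3 and hybridised to one-colour Agilent arrays. Per the submitters' processing notes, images were read with Agilent Feature Extraction 11.0.1.1, and per the file headers the deposited intensity is the software's background-subtracted processed signal, not normalized between arrays. Spots flagged as outliers (634 to 669 per array) were left out, log2 of the deposited intensity was averaged over a probe's spots, and the array's 75th percentile over the remaining non-control spots was subtracted. Probes were named through their RefSeq accession (GRCr8 gene table), which left 24489 of 45598 unnamed. Their sequences were not checked for cross-hybridisation between related genes, and no array coordinates are given. The brightest probe stood for a gene.

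Variation between arrays was tested in R 4.3.3 with limma 3.58.1 (squeezeVar with trend, robust): a variance with 3 degrees of freedom over the prior variance, upper tail of F, with 24.3 prior degrees of freedom common to all genes. The script was tested on simulated data. Members, partner lists, markers and the split at column 72 were chosen with earlier results of these data known. The common degrees of freedom and the percentile over unflagged spots were kept after other versions had also been run on these data, because they followed the earlier analysis; both other versions are given under the alternatives. Results on 1 member and 1 partner gene are not reported here by name, though both are in the counts. The other members were named, p-values were given for the 5 largest and 3 smallest SDs of members and any adjusted p under 0.05, and the first 2 genes of each partner class were otherwise named. Signal over background and the number of arrays limit the precision.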

Additional observations from a re-analysis of the deposited data

Results flagged for a closer look

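In 2 of 24 tested members a single array was far from the rest, judged by Dixon's ratio (the gap between the extreme value and its nearest neighbour, over the whole range) at its 95% critical value. Chance flags about 5% of groups, and 5.46% of all genes tested passed. Bet1 had a ratio of 0.869, with replicate 1 low at -2.37 and the others between -1.42 and -1.27. Gosr2 had a ratio of 0.874, with replicate 1 high at 1.94 and the others between 1.62 and 1.66. Both genes have their only spot at columns 1 to 72 of the array. The part of array position in these values was not tested.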

How the results depend on the processing

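The 24 members detected on all arrays became 29 with the more lenient flag or with 1 array enough, and 24 to 26 without 1 replicate. Over all 16579 genes, the 7579 detected on all arrays became 9160 with that flag and 8583 with 1 array enough. Without 1 replicate they were 7589 to 7734. No member but Bet1 was called more variable. Bet1 was called with normexp on median spot signals (1 member) and without replicate 2 (0 to 1 members over the replicates left out). The normexp setting changed the input signal and the background correction together and added an offset of 50 units. The median SD of the members ranged from 0.123 to 0.164. Calls over all genes (39) were far less steady: 0 with the 75th percentile of detected probes as scale, 12 with quantile normalization, 206 with normexp on median spot signals, 127 with no filter on dim genes, 9 with a prior that was not robust, 0 with a prior without trend, 5 beyond column 72 alone, and 10 to 77 without 1 replicate (77 without replicate 2, 10 without replicate 3, 16 without replicate 4). With prior degrees of freedom lowered per gene, an alternative run before the common ones were adopted and so chosen after seeing the data, limma called 0 genes, with 358 at an unadjusted p under 0.05. With flagged spots in the percentile, also chosen after seeing the data, it called 27. The adjusted p of Bet1 by limma ran from 0.00112 to 0.994 over these settings. The scale moved the median level of all genes by 0.56 (median of detected probes), -1.72 (their 75th percentile) and -0.16 (flagged spots kept or counted in the percentile). No paired analysis was possible because there was only 1 group.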
